A study of Mus musculus with 11 samples.

Results

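The genes for protein modification by ISG15 and its removal by Usp18 were followed in RNA sequencing of mouse livers. They were Usp18, Isg15, Uba7, Ube2l6, Herc6 and Trim25. Only their RNA was read, and neither the proteins nor the joining of ISG15 to targets was measured. All 6 genes were found by symbol among the 43346 genes of the count table, each as 1 row. All 6 passed the filter on low counts. The genes were chosen by name with the difference between responders and non-responders in these libraries already known, so for that difference their levels, fold changes and calls are a description and carry no independent support.

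All mice were of the FVB/NJ strain and carried hepatocellular carcinoma driven by 2 introduced genes, the tyrosine kinase receptor MET and β-catenin, the effector of Wnt signalling. The labels give no age, do not say which promoter drove the transgenes or whether tumour or surrounding liver was sampled, and do not tell if each library is a mouse of its own, so any p-value measures the spread between these libraries, which may be technical. There were 6 libraries from mice treated with anti-PD-1, an antibody against an inhibitory receptor of T cells, and labelled responder, 4 from mice treated with it and labelled non-responder, and 1 whose response label says that there was no treatment although its treatment label names anti-PD-1. That library is called untreated here. The question set by the labels is how the liver transcriptome differs with the response to the antibody.

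ISG15 is a small protein with tandem ubiquitin-like domains that cells make in response to interferon. It is joined to other proteins by a cascade that mirrors ubiquitination: UBA7 activates it, UBE2L6 carries it, and a ligase such as HERC6, the main ISG15 ligase described in mice, or TRIM25 transfers it to a target. USP18 cuts ISG15 off its targets, and it also binds the type I interferon receptor chain IFNAR2 and thereby restrains signalling. In liver, both activities are known from studies of viral hepatitis and interferon therapy.

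Gene counts summed to between 17876515 and 49884800 per library. Summed markers of hepatocytes (10 genes) stood between 89366 and 153325 CPM (reads scaled to a common library size by TMM, the trimmed mean of M-values) in every library, and were higher in all 4 non-responders (119683 or more) than in all 6 responders (101537 or less). Most of that sum was albumin (Alb), at 48588 to 62619 CPM in responders and 76514 to 91021 in non-responders, and the single markers went both ways: Apoa1 and Trf were lower in responders, Cps1, Tat and Serpina1a were higher, and the other 5 did not pass by edgeR. DESeq2 and limma-voom also called Alb lower in responders, and DESeq2 called Ttr higher. Summed natural killer cell markers ran from 0.524 to 2.43 CPM in responders and from 2.44 to 10.04 in non-responders. By edgeR 2 of 4 tested ones were lower in responders, Klrb1c and Prf1, while DESeq2 and limma-voom called Prf1 only. Klrb1c stood at 7.66 CPM in non-responder replicate 2 and at 0.668 to 0.951 in the other non-responders. Macrophage markers overlapped (151 to 475 against 77.2 to 320 CPM, 0 of 9 past the threshold by edgeR, DESeq2 or limma-voom, also unadjusted), as did T cell markers (4.66 to 9.43 against 4.32 to 13.7 CPM, 1 of 8 lower). Summed plasmacytoid dendritic cell markers overlapped, at 101 to 231 CPM in responders and 211 to 260 in non-responders. Most of that sum was Bst2, at 84.0 to 213 CPM in responders and 186 to 243 in non-responders. Of the 6 markers 0 of 4 tested passed by edgeR (1 lower unadjusted), and 0 by DESeq2 or limma-voom (2 lower unadjusted in each). Siglech, a defining marker, stood between 0.363 and 2.10 CPM in every library. Stellate cell markers ran from 141 to 358 CPM in responders and from 316 to 453 in non-responders and cholangiocyte markers from 17.5 to 25.9 and from 25.7 to 69.7, with 0 of 8 and 0 of 5 past the threshold by edgeR (5 and 2 unadjusted, 2 and 1 by DESeq2). Reln was the largest stellate marker in every library, at 63.7 to 254 CPM in responders and 118 to 309 in non-responders. Lrat leaned the other way, at 10.1 to 25.7 and 5.76 to 13.2. Col1a1 stood at 80.9 CPM in non-responder replicate 1 and at 6.38 to 13.5 in the other non-responders. Most of the cholangiocyte sum was Spp1, at 14.4 to 21.2 CPM in responders and 21.4 to 66.3 in non-responders. Krt19, Krt7, Epcam and Sox9 overlapped. Endothelial markers (1 of 6 lower), neutrophil and monocyte markers (0 of 6) and B cell markers (0 of 5) overlapped. Over all genes tested by edgeR, 9.93% passed. Non-responder replicate 1 had reads shifted toward the later exons of genes (a log2 index of 1.28 over 4628 genes, against -0.06 to 0.16 in the other libraries). In bulk liver, fewer cells of a type and less RNA per cell cannot be told apart, and the part of these differences in the results below was not tested.

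Promoter sequences of 300 bases, from 250 before to 50 after the start site, were matched in RefSeq (build GRCm38.p6) for 5 of the 6 genes. Usp18 was not matched. They were searched on both strands for the interferon-stimulated response element, taken as TTTC and TTTC separated by any 2 bases (on the other strand GAAA and GAAA with the same gap). They are printed to set the one gene with an exact match beside genes with inexact or no matches. The Isg15 promoter lies at chr4:156200769-156201068 on the minus strand, that of Uba7 at chr9:107975317-107975616 on the plus strand, that of Ube2l6 at chr2:84798578-84798877 on the plus strand and that of Trim25 at chr11:88999153-88999452 on the plus strand. Capitals mark exact matches in Isg15, and matches with 1 mismatch in Uba7 and Trim25.
Isg15: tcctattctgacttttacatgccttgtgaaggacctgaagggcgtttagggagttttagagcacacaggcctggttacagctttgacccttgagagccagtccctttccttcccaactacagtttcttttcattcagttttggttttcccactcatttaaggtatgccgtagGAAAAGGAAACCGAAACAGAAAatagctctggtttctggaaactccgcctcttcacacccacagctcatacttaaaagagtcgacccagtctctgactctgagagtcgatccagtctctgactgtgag
Uba7: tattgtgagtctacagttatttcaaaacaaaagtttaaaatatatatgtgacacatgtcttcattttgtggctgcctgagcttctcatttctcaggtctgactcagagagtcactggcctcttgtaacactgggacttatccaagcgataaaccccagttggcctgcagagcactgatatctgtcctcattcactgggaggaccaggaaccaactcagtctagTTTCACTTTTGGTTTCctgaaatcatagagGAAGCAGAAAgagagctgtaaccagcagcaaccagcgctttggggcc
Ube2l6: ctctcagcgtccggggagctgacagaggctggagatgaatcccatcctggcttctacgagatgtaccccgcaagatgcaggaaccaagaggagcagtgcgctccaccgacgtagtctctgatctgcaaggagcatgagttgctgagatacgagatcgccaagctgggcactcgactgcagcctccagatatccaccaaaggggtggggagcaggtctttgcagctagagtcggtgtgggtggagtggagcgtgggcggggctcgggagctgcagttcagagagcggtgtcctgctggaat
Trim25: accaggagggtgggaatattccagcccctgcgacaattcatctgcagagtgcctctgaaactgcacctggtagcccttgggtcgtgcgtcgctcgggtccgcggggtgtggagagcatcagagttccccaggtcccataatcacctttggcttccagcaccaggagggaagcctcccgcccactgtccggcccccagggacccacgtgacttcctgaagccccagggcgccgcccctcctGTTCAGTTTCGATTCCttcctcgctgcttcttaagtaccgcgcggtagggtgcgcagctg

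Only Isg15, of the 5 promoters read, held exact matches, against 3.44% of 32851 promoters of the same length. Its 3 matches overlapped one another and began 78, 72 and 66 bases before the start site. With 1 mismatch allowed, 4 of the 5 promoters matched (all but Ube2l6), where 35.4% of all promoters did. In Uba7 the matches began 27 and 21 bases before the start site and 3 bases after it, in Trim25 10 and 4 bases before it, and in Herc6, whose promoter is not printed, 197 bases before it. The gamma-activated site, taken as TTC and GAA separated by any 3 bases, was in 0 of the 5, against 8.30% of all promoters, and in 4 of the 5 with 1 mismatch, against 71.4%. These are matches of letters in a window and show no binding.

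In responder livers Usp18 and Isg15 were several-fold lower than in non-responder livers, Uba7 and Herc6 were about 2-fold lower, and Ube2l6 and Trim25 did not pass the test. By edgeR's quasi-likelihood test over 17610 genes (Benjamini-Hochberg adjusted p under 0.05), 4 of the 6 were lower in responders and 0 were higher. Over all genes tested, 9.93% passed, 5.82% as lower and 4.11% as higher. In TMM-scaled CPM the groups did not overlap for Usp18 and Isg15, both lower in every responder. This was the case for 5.62% of all genes tested (11.3% in either direction). For Isg15 the margin was narrow and depends on the scaling. Responder replicate 4 had 10.2 CPM and non-responder replicate 3 had 10.9, and in deposited RPKM they had 9.62 and 9.63. Since the genes were chosen with this difference known, nothing is read from their share.

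**Figure D1:**
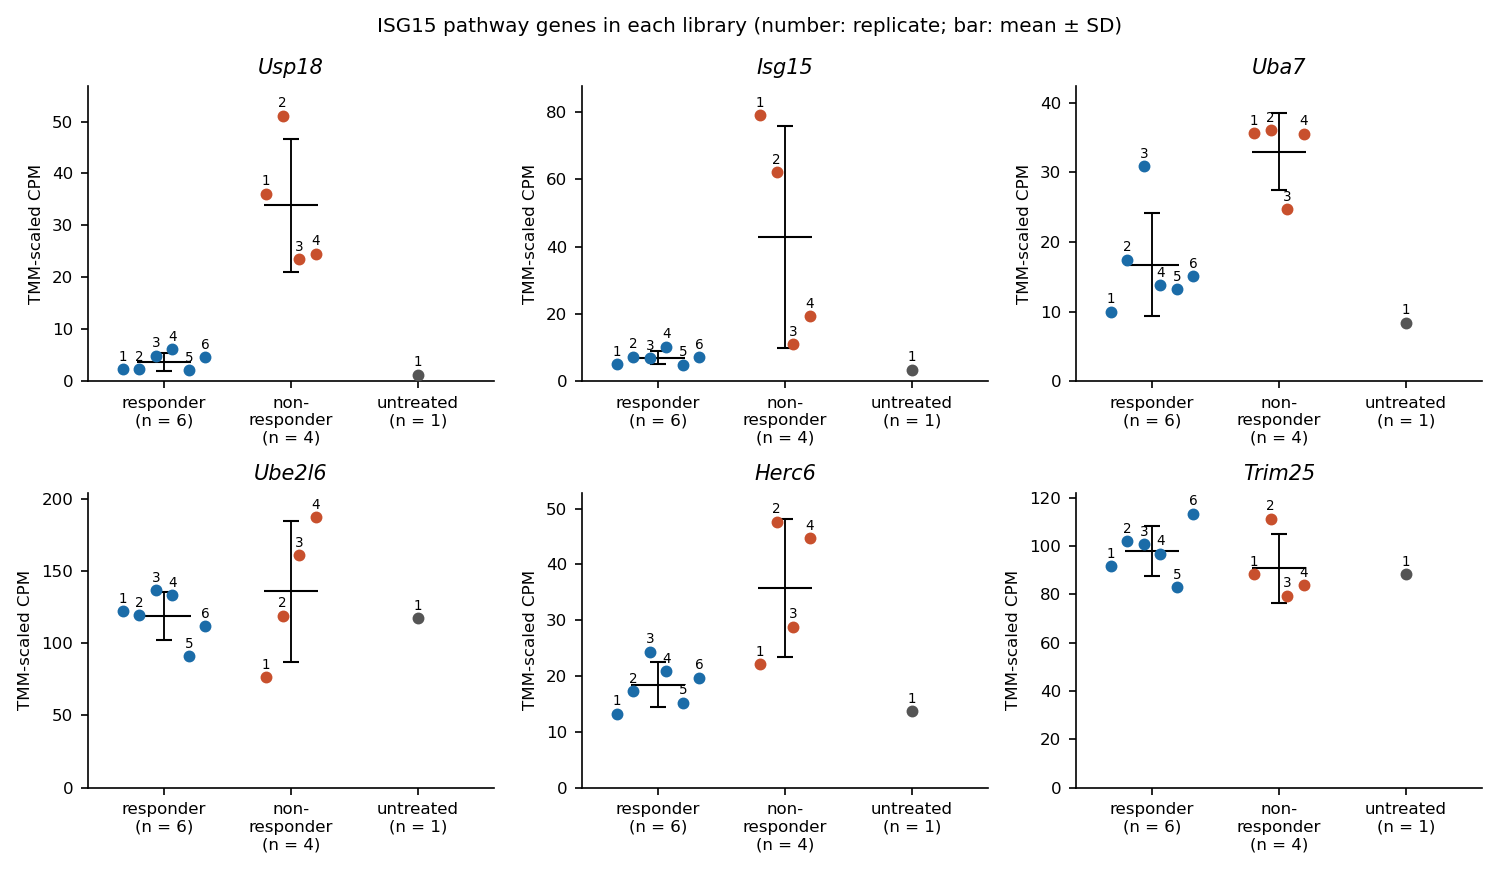
TMM-scaled CPM of the 6 genes (vertical axes, linear, from 0) in every library, grouped by response label, with the replicate number above each point and bars for the mean ± SD. Usp18 lay at 23.5 CPM or more in all 4 non-responders and at 6.10 or less in all 6 responders, Isg15 was high in non-responder replicates 1 and 2 and near the responders in replicate 3, and Trim25 overlapped throughout.

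Usp18 (ENSMUSG00000030107, mm10 chromosome 6, 121245906 to 121270916, plus strand), the ISG15 protease, stood at 2.30, 2.33, 4.93, 6.10, 2.11 and 4.67 CPM in responder replicates 1 to 6. Non-responder replicates 1 to 4 had 36.1, 51.1, 23.5 and 24.5 CPM, and the untreated library had 1.27. Every non-responder lay above every responder, and the untreated library lay below all 10 treated ones. The means were 3.74 ± 1.71 CPM (SD, n = 6) and 33.8 ± 12.9 (SD, n = 4), which gives a log2 fold change of -3.19 ± 0.34 (SE). Within responders the levels spread 2.89-fold, with replicates 3, 4 and 6 above replicates 1, 2 and 5. The values rest on 57 to 207 reads per responder library, 917 to 1884 per non-responder library and 62 in the untreated one. Usp18 passed in all 10 fits that left out 1 library (log2 fold change -3.37 to -2.91).

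Isg15 (ENSMUSG00000035692, chromosome 4, 156199424 to 156200818, minus strand) encodes the modifier itself. It stood at 5.08, 7.23, 6.86, 10.2, 4.88 and 7.02 CPM in responder replicates 1 to 6, and at 79.0, 62.1, 10.9 and 19.2 CPM in non-responder replicates 1 to 4. The untreated library had 3.45 CPM, below every treated library. Non-responder replicates 1 and 2 were several-fold above replicates 3 and 4, and replicate 3 lay just above the highest responder, replicate 4. Means were 6.88 ± 1.93 CPM (SD, n = 6) and 42.8 ± 33.0 (SD, n = 4), and the log2 fold change was -2.65 ± 0.48 (SE). Isg15 missed the threshold without non-responder replicate 2 (log2 fold change -2.40) and kept it in the other 9 such fits. Without non-responder replicate 1, the library with reads toward later exons, it was -2.17.

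Uba7 (ENSMUSG00000032596, chromosome 9, 107975505 to 107984060, plus strand), the activating enzyme, stood at 9.96, 17.5, 30.9, 13.8, 13.3 and 15.0 CPM in responder replicates 1 to 6 and at 35.6, 36.1, 24.7 and 35.6 CPM in non-responder replicates 1 to 4. The groups overlapped through responder replicate 3 alone, which lay above non-responder replicate 3. The untreated library, at 8.42 CPM, was again below all 10. Means were 16.7 ± 7.36 CPM (SD, n = 6) and 33.0 ± 5.53 (SD, n = 4), with a log2 fold change of -0.98 ± 0.26 (SE). Uba7 kept the threshold in 2 of 10 fits that left out 1 library, those without responder replicate 3 (-1.25) and without non-responder replicate 3 (-1.10). It shares 233 exon bases with Gm20661 on the same strand, which had a mean of 68.8 reads per library where Uba7 had 774. Responder replicate 3 also had the highest summed macrophage markers, at 475 CPM, and the highest T cell markers among responders, at 9.43 CPM, and their part in its Uba7 level was not tested.

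Ube2l6 (ENSMUSG00000027078, chromosome 2, 84798828 to 84810335, plus strand), the carrier enzyme, stood at 122, 119, 137, 133, 90.8 and 112 CPM in responder replicates 1 to 6. It stood at 76.2, 119, 161 and 187 CPM in non-responder replicates 1 to 4 and at 117 in the untreated library. The lowest and the highest of all 11 libraries were both non-responders, so the groups overlapped fully. Means were 119 ± 16.6 CPM (SD, n = 6) and 136 ± 48.6 (SD, n = 4), and the log2 fold change was -0.19 ± 0.21 (SE). Among the non-responders the order of Ube2l6 ran against that of Isg15: the 2 libraries with the most Isg15 had the least Ube2l6. Replicate 1, the lowest for Ube2l6, is the library with reads toward later exons, and without it the log2 fold change was -0.39. It did not pass in that fit or in any of the other 9.

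Of the ligases, Herc6 (ENSMUSG00000029798, chromosome 6, 57580992 to 57665136, plus strand) stood at 13.2, 17.3, 24.4, 20.8, 15.2 and 19.7 CPM in responder replicates 1 to 6 and at 22.1, 47.6, 28.8 and 44.7 CPM in non-responder replicates 1 to 4. Only non-responder replicate 1 fell among the responders, below replicate 3 of those. The untreated library had 13.6 CPM, above responder replicate 1 only. Means were 18.4 ± 4.03 CPM (SD, n = 6) and 35.8 ± 12.3 (SD, n = 4), with a log2 fold change of -0.96 ± 0.22 (SE). Herc6 lost the threshold without responder replicates 1, 2 and 5 and without non-responder replicates 2 and 4, each left out in turn, and kept it in the other 5 fits. In the annotation it shares 1269 exon bases with Gm45193 on the same strand, whose counts were not used here.

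Trim25 (ENSMUSG00000000275, chromosome 11, 88999376 to 89020293, plus strand), a ligase of ubiquitin for the RNA sensor RIG-I as well as of ISG15, varied least. Responder replicates 1 to 6 had 91.8, 102, 101, 96.9, 83.1 and 113 CPM and non-responder replicates 1 to 4 had 88.5, 111, 79.5 and 83.9, with 88.5 in the untreated library. Levels spread 1.37-fold within responders and 1.40-fold within non-responders, and the groups overlapped. The log2 fold change was 0.10 ± 0.13 (SE), and it did not pass in any of the 10 fits that left out 1 library (0.05 to 0.23).

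**Figure D2:**
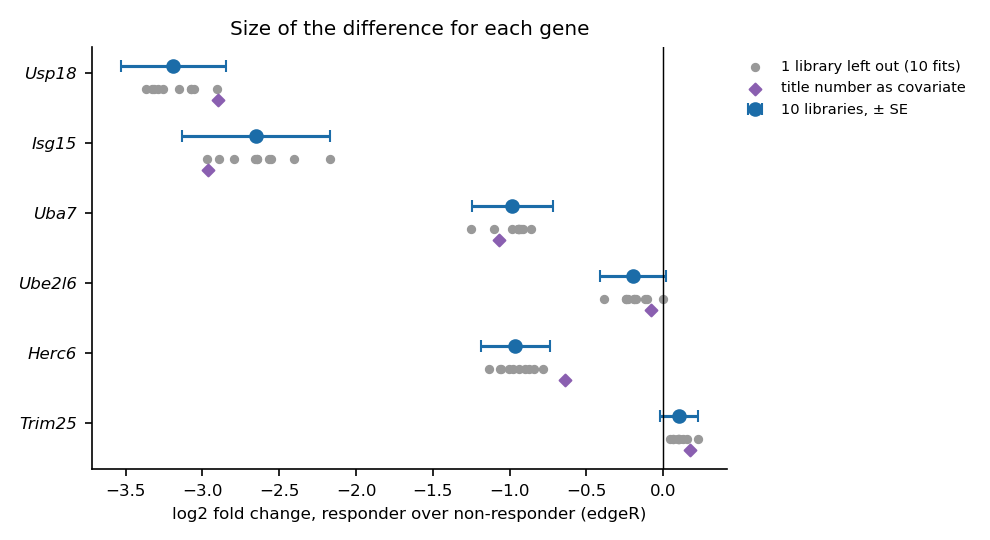
Log2 fold change of each gene, responder over non-responder (horizontal axis, edgeR), from 10 libraries with its SE, from the 10 fits that left out 1 library each, and with the title number of each library in the model. Usp18 stayed between -3.37 and -2.90 in all of these, while Ube2l6 and Trim25 lay near 0.

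With the title number of each library in the edgeR model, 0 of the 6 genes passed (3 at an unadjusted p under 0.05) and 1 gene of the whole table did (1857 unadjusted). Usp18 then had a log2 fold change of -2.90 ± 0.60 (SE) and Isg15 one of -2.96 ± 0.78 (SE). Responders carried the title numbers 1, 3, 9, 13, 16 and 29, and non-responders 26, 30, 32 and 37, so title number and response can hardly be told apart.

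Levels of different genes were compared per length, as the deposited RPKM, which divide reads by gene length and library depth. In responders the order was Ube2l6 (40.4 ± 7.72), Trim25 (11.5 ± 1.54), Isg15 (6.20 ± 2.01), Herc6 (2.39 ± 0.69), Uba7 (1.73 ± 0.90) and Usp18 (1.45 ± 0.74 RPKM, SD, n = 6 each). The last 3 lay within their spread between libraries of one another. Within each responder library, though, Usp18 lay below Herc6 (ratios of 0.402 to 0.874). In non-responders it was Ube2l6 (47.9 ± 15.1), Isg15 (41.9 ± 34.0), Usp18 (13.8 ± 5.64), Trim25 (11.3 ± 2.10), Herc6 (4.83 ± 1.61) and Uba7 (3.55 ± 0.74 RPKM, SD, n = 4 each). There Isg15 could not be separated from Ube2l6 by its spread, nor Usp18 from Trim25, nor Herc6 from Uba7. By the group means Usp18 was the last in responders and the third in non-responders, though in responder replicates 4 and 6 it lay above Uba7. In the untreated library the order was that of the responders, from 37.2 RPKM for Ube2l6 to 0.455 for Usp18. The listed length of Uba7 (6692 bases) exceeds that of its principal coding transcript (3195 bases), which lowers its RPKM against the others.

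The balance of protease RNA and modifier RNA differed among the non-responders. Usp18 over Isg15 in RPKM was 0.193, 0.138, 0.307, 0.255, 0.185 and 0.284 in responder replicates 1 to 6. In non-responder replicates 1 to 4 it was 0.195, 0.352, 0.924 and 0.545, and in the untreated library 0.158. Replicates 3 and 4 of the non-responders, the ones with little Isg15, had the highest ratios of all 11 libraries, and replicate 1 lay inside the responder range. Usp18 over Trim25 was 0.0741 to 0.205 in responders, 0.950 to 1.49 in non-responders and 0.0468 in the untreated library, without overlap. Usp18 over Uba7 was 0.504 to 1.67 against 2.61 to 5.36, and over Herc6 0.402 to 0.874 against 1.64 to 4.87, also without overlap. Isg15 over Ube2l6, the modifier against its carrier, was 0.110 to 0.203 in responders and 2.73, 1.38, 0.179 and 0.271 in non-responder replicates 1 to 4, so replicate 3 fell inside the responder range.

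**Figure D3:**
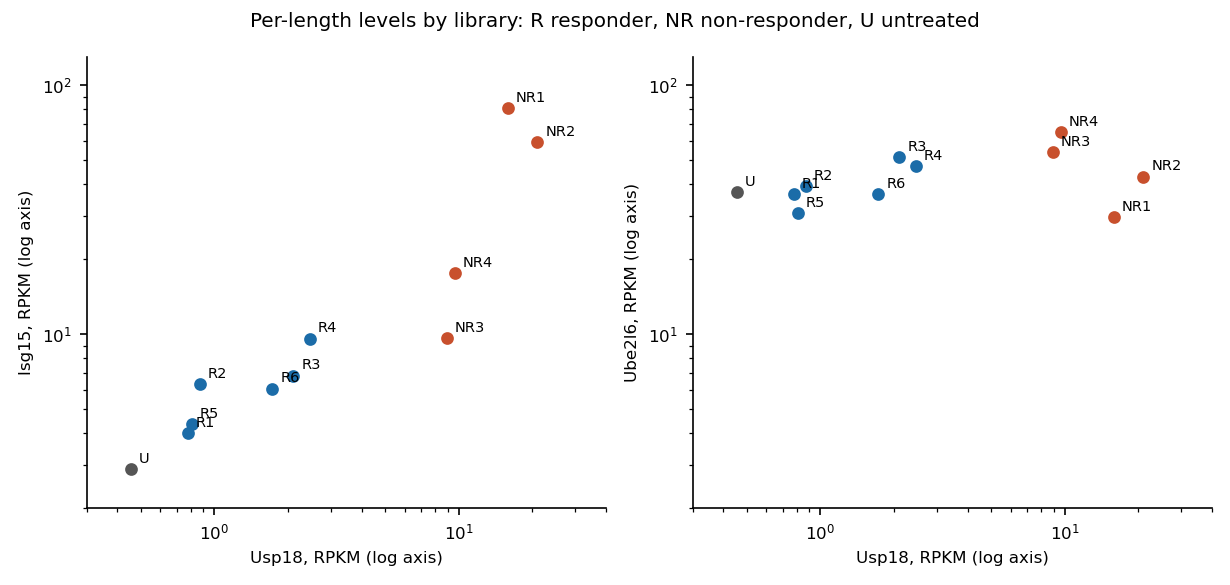
Isg15 (left) and Ube2l6 (right) against Usp18 in deposited RPKM, both axes logarithmic, 1 point per library. Non-responder replicates 3 and 4 lie far to the right of the responders for Usp18 (8.90 and 9.62 RPKM) with Isg15 at 9.63 and 17.6 RPKM, while Ube2l6 stays between 29.7 and 65.1 RPKM in all libraries.

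The exon table showed on which parts of each gene these values rest. Exons of 1 gene come from the same libraries, so they are no separate support. The share of all exons without overlap was not computed, and nothing is read from the counts below. Along 1 principal coding transcript per gene, all 11 exons of Usp18 were lower in every responder than in every non-responder. The non-responder mean exceeded the responder mean by 7.0-fold (exon 6) to 11.9-fold (exon 11). These ratios rest on few responder reads: exon 1 was at 0 CPM in responder replicate 1, and exon 10 at 0.0675 to 0.482 CPM in responders. The filter on exon reads used the mean over all 11 libraries, which the non-responders raise for Usp18. At exon 11, non-responder replicate 1, whose reads lay toward later exons, had 17.1 CPM and the other non-responders 5.03 to 11.9. Of the 2 Isg15 exons, exon 1 did not overlap (5.45-fold) and exon 2 did (6.30-fold). Of 24 Uba7 exons 0 were without overlap, at 1.43-fold to 3.03-fold, and without non-responder replicate 3 there were 9. At Uba7 exon 24, non-responder replicate 1 had 4.43 CPM and the other non-responders 0.899 to 1.85. Of 23 Herc6 exons 5 were without overlap, at 1.29-fold to 2.62-fold, and without non-responder replicate 1, whose reads lay toward later exons, there were 15. The ratios were 1.03-fold to 1.18-fold over the 4 Ube2l6 exons and 0.743-fold to 1.01-fold over the 9 Trim25 exons, all overlapping. Usp18 shares 124 exon bases with Gm44148 on the other strand. The strand setting of the counting is not given in the sources used here.

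**Figure D4:**
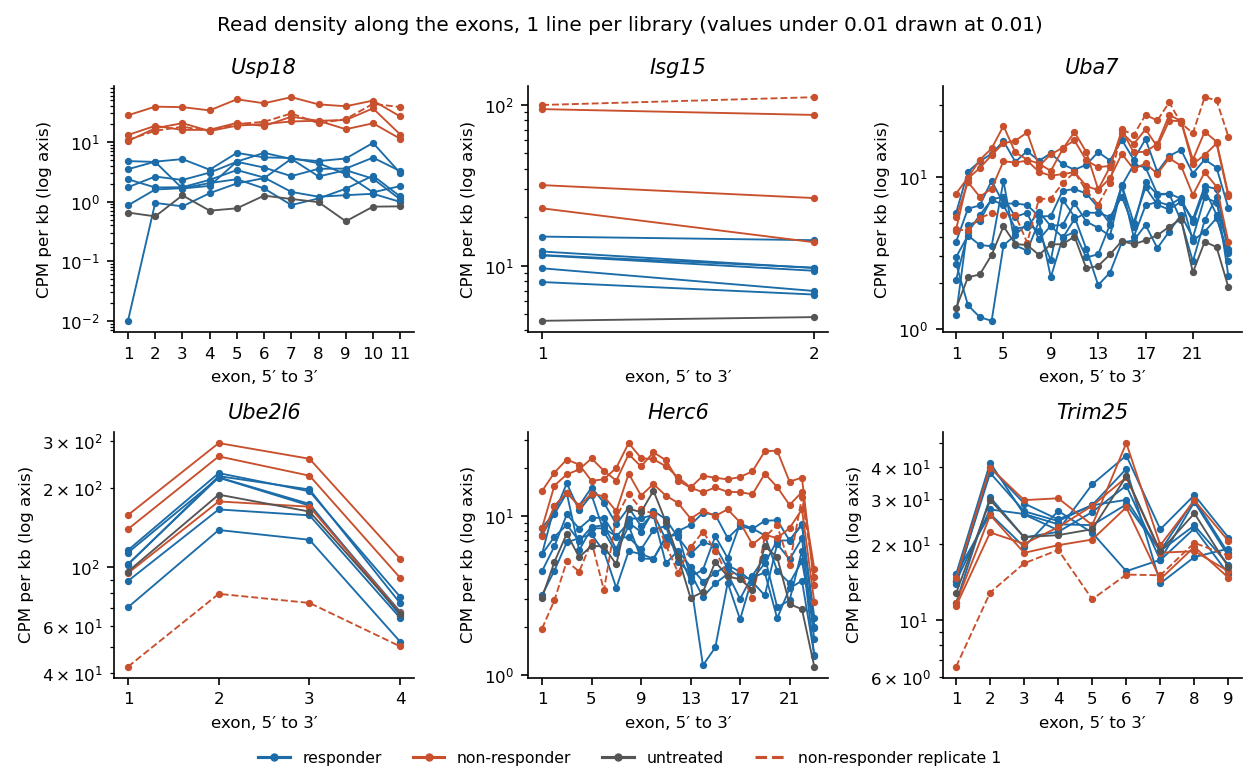
Read density of each exon (CPM per kilobase, log axis) from the 5′ to the 3′ end of 1 transcript per gene, 1 line per library, with non-responder replicate 1 dashed. The Usp18 lines of the 2 treated groups do not cross at any of the 11 exons, and the dashed line is low at the first exons of Herc6 and Trim25 and throughout Ube2l6.

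The untreated library was below all 10 treated libraries for 3 of the 6 genes, Usp18, Isg15 and Uba7, where 7.76% of all genes tested were. Its Usp18 level was 0.364 of the responder median, its Isg15 level 0.497 and its Uba7 level 0.584. Ube2l6 (0.973), Trim25 (0.895) and Herc6 (0.738) lay inside the responder range, Herc6 above responder replicate 1 only. With 1 library this has no test. Its hepatocyte marker sum, 89366 CPM, was also the lowest of the 11.

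Among tested genes of average log2 CPM 1 or more, likeness to Usp18 was measured as the root mean square difference between log2 CPM profiles over the 11 libraries, each centred on its mean. Of 11422 genes, the 5 closest were Cyp2a4, a cytochrome P450 (0.50), Oas1a, an antiviral oligoadenylate synthetase (0.50), Il1rn, the interleukin-1 receptor antagonist (0.55), Panx1, a membrane channel (0.56), and Zbp1, a sensor of unusual nucleic acids (0.57 on the log2 scale). Isg15 was in place 50 (0.77), Uba7 in place 397 (1.19), Herc6 in place 558 (1.28), Ube2l6 in place 4575 (1.75) and Trim25 in place 5289 (1.78). Oas1a followed Isg15 among the non-responders, with 13.3, 14.1, 3.39 and 4.18 CPM in replicates 1 to 4 against 0.407 to 2.02 CPM in responders. Cyp2a4 did not, with 73.5, 78.1, 81.6 and 49.1 CPM against 5.89 to 26.1. The 5 were picked for profiles like that of Usp18 over the same libraries, so their own difference between the groups is a description: log2 fold changes ran from -3.15 for Oas1a to -2.15 for Panx1, all 5 past the threshold. Each missed the threshold without non-responder replicate 2, Il1rn, Panx1 and Zbp1 also without responder replicate 2, and Il1rn and Panx1 without responder replicate 5.

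Of the pathway's inputs, the interferon genes were scarcely read. Of 20 listed interferon symbols (21 rows) 19 rows were at 0 in every library, among them Ifnb1, where a count of 0 allows up to 3 reads per library. Ifnk had 3 to 17 reads per library and Ifng 0 to 6. Of 10 genes for interferon receptors, their kinases and the ISGF3 transcription factor 2 were lower in responders, 0 were higher and 8 did not pass, with a median log2 fold change of -0.05 (-0.02 over all genes tested). Over all genes tested by edgeR, 5.82% were lower and 4.11% higher. The interferon-gamma receptor gene Ifngr1 had -1.60 ± 0.37 (SE), with 16.1 to 66.0 CPM in responders and 74.2 to 107 in non-responders. Irf9, the DNA-binding part of ISGF3, was the other, named after its call was seen. Of 10 other restraints on interferon signalling 1 was lower, Socs1, also named after its call was seen. DESeq2 called it too, while limma-voom called 0 of these. Socs3 (-0.79 ± 0.33) and Pias2 (0.30 ± 0.12, SE) did not pass, and the median was 0.00.

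Of 17 genes for proteins known to carry or bind ISG15, edgeR called 4 lower in responders and 13 neither way (median -0.18). Over all genes tested it called 5.82% lower. The lists were chosen with earlier results of these data known, so nothing is read from their shares. DESeq2 called 5 lower and limma-voom 1, where over all genes tested they called 1699 of 19784 and 1105 of 17610 lower. By edgeR Ifit3, an antiviral protein, had -2.92 ± 0.62 (SE) and Mx1, an antiviral GTPase, -2.92 ± 0.73 (SE). Ifit1 and Ddx58, which encodes RIG-I, were the others called by edgeR. By limma-voom only Ddx58 passed, so Ifit3, Mx1 and Ifit1 did not pass there. Mx1 stood at 13.8, 13.8, 0.873 and 1.0 CPM in non-responder replicates 1 to 4 and at 0.686 to 1.43 in responders, so replicates 3 and 4 lay inside the responder range. Ifit3 stood at 26, 22.5, 3.06 and 4.36 CPM there and at 0.605 to 2.90 in responders. In the same replicates 3 and 4, Usp18 stood at 23.5 and 24.5 CPM, with the highest responder at 6.10. Of 12 genes of the RIG-I pathway around Trim25 4 were lower and 8 did not pass (median -0.22), Irf7 at -1.86 ± 0.41 and Dhx58 at -1.13 ± 0.26 (SE) among them, with Ikbke and Ddx58. Irf7, a transcription factor of the interferon response, had 57.8, 46.5, 14.7 and 16.8 CPM in non-responder replicates 1 to 4, and responder replicate 3, at 17.4, lay above the last 2 of these.

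Of the antiviral TRIM ligases 3 of 14 tested were lower and 11 did not pass (median -0.40): Trim34a (-0.60 ± 0.15, SE), Trim12c and Pml. Over all genes tested by edgeR, 5.82% were lower. Trim30a missed the threshold at -1.03 ± 0.32 (SE, edgeR adjusted p = 0.0637). Members of the Trim12, Trim30 and Trim34 groups have near-identical relatives, so reads could be split between them. Called genes of these lists depended on single libraries. Without non-responder replicate 2, Ifngr1, Ifit3, Mx1, Irf7, Dhx58 and Trim34a all missed the threshold, as all 6 did without responder replicate 2 and without responder replicate 5. All of these but Ifit3 missed it without responder replicate 1, all but Ifit3 and Trim34a without non-responder replicate 1, Ifngr1 and Mx1 without responder replicate 3, and Trim34a without non-responder replicate 4.

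**Figure D5:**
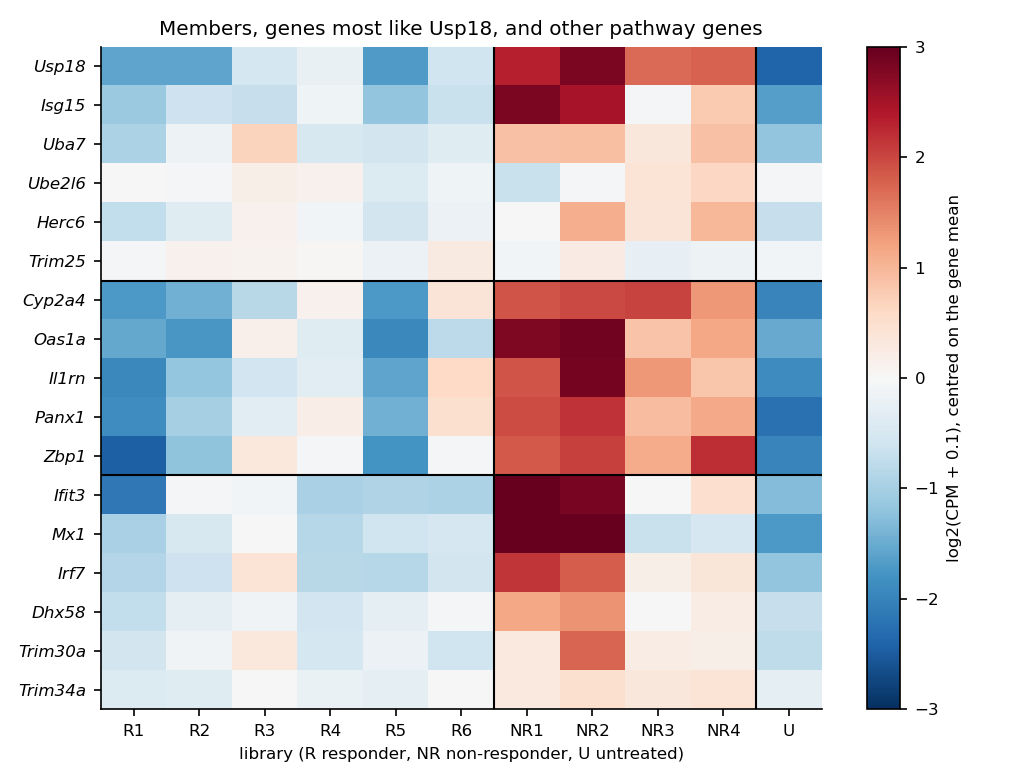
Log2 of CPM plus 0.1, centred on each gene's mean over 11 libraries (colour), for the 6 genes, the 5 genes closest to Usp18, and other interferon pathway genes. Non-responder replicates 1 and 2 are high for Isg15, Ifit3 and Mx1, whereas Usp18 is high in all 4 non-responders.

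Machinery of ubiquitin and other modifiers, the relatives of the ISG15 enzymes, was mostly not past the threshold, like most genes. By edgeR 15862 of all 17610 genes tested did not pass, and 5.82% were lower. At an unadjusted p under 0.05, 4803 passed by edgeR. Over all genes tested DESeq2 called 1699 lower and 1347 higher of 19784, and limma-voom 1105 and 901 of 17610. Nothing is read from the counts below. Of 9 activating enzyme genes of other modifiers 1 was lower, Sae1 of the SUMO pathway (-0.59 ± 0.16, SE), and Uba2, its partner, had -0.28 ± 0.12 (SE) and did not pass. Sae1 kept the threshold in 3 of 10 fits that left out 1 library, and lost it without any one of non-responder replicates 2, 3 and 4 or of responder replicates 1, 2, 3 and 5. Of 25 carrier enzyme genes of ubiquitin edgeR called 1 lower, Ube2t, while DESeq2 and limma-voom each called 2, Ube2t and Ube2c. By edgeR Ube2c had -1.37 ± 0.41 (SE, adjusted p = 0.0541) and Ube2v1 -0.38 ± 0.15 (SE, adjusted p = 0.115). Of 13 modifier genes 0 passed by edgeR (1 unadjusted), 1 by DESeq2 and 0 by limma-voom. Ubd, which encodes the interferon-inducible modifier FAT10, had -0.64 ± 0.85 (SE) and a responder range of 0.325 to 9.88 CPM, the highest being replicate 3. Without that library Ubd was at -2.11 and passed (edgeR adjusted p = 0.0371), while the other 9 such fits did not call it. Of the other uncalled genes named here, Ube2c passed without responder replicate 4, Uba2 without non-responder replicate 1, and Trim30a and Socs3 without non-responder replicate 3. Of the 4 other HERC genes 0 passed by any of these tools, also unadjusted, with Herc3 at 0.39 ± 0.23 and Herc4 at 0.17 ± 0.20 (SE). Of 7 tested genes for other ISG15 enzymes and candidate proteases 0 passed by any of them (1 at an unadjusted p under 0.05), with Ube2e2 at -0.38 ± 0.16 and Arih1 at 0.16 ± 0.17 (SE).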

How the data were processed

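Liver RNA was sequenced from 11 libraries. FastQC and mm10 come from the submitters' processing notes. What aligner, counter, annotation and strand were used is not given in the sources used here. Raw counts were deposited by the authors per gene and per exon of each transcript, together with RPKM of both, per the file headers. RPKM were used as deposited, for levels between genes only. CPM were computed from the gene counts with TMM scaling over all 11 libraries. Responders (6) and non-responders (4) were tested by edgeR 4.0.16 (R 4.3.3, genes kept by filterByExpr, TMM, robust quasi-likelihood fit, Benjamini-Hochberg adjustment over 17610 genes, threshold 0.05), and the SE is the fold change divided by the root of F. The untreated library has no test. Exon values follow 1 coding transcript per gene of GENCODE M21, with exons of a mean of 10 or more reads over all 11 libraries. The late exon index is the median log2 ratio of read density in later over earlier exons, relative to the treated libraries' median.

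The 6 genes, the 11 pathway lists, the 10 marker lists and the tests were chosen with earlier results of these data known. Named genes are the 6, the 2 of each list with the largest change whose log2 CPM averaged 1 or more, and the 5 closest to Usp18 (log2 CPM with a prior count of 2, without unnamed gene models of the Gm and Rik kind); others are marked as named after their call was seen or are listed only because they passed. Results for 2 genes that this rule names are not reported here. In all 21 pairs of libraries within a group, the chi-square between them was 3.97 times that of counting alone or more, so none was treated as a repeat. Replicate numbers follow accession order and pair nothing. The alternatives tried were scaling by library size only, by RLE or by upper quartile, a looser and a stricter filter, limma-voom (limma 3.58.1), DESeq2 1.42.0, the untreated library as a group of the model, the title number as a covariate, sums of exon counts, a mismatch in the motif and each library left out. The fits were tested on simulated data.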

Additional observations from a re-analysis of the deposited data

Results flagged for a closer look

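Uba7 gave both flags among the 12 groups of values examined (6 genes in responders and in non-responders), where chance flags about 1 in 20 groups. In responders, replicate 3 stood apart from the others at 30.9 CPM, with the next at 17.5, a gap of 0.642 of the whole range. In non-responders, replicate 3 stood apart at 24.7 CPM, with the next at 35.6, a gap of 0.955 of the range. Without responder replicate 3 the log2 fold change of Uba7 was -1.25 ± 0.17 (SE), and without non-responder replicate 3 it was -1.10 ± 0.28 (SE).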

How the results depend on the processing

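The direction of all 6 genes was the same in all 20 alternatives. Usp18 passed in 19, Isg15 in 18, Herc6 in 14 and Uba7 in 10 of them, and Ube2l6 and Trim25 in 0. With the title number as a covariate 0 genes were higher and 1 lower over the whole table, and 0 of the 6 genes passed; DESeq2 called 1347 higher and 1699 lower, with the same 4 of the 6 genes past the threshold. Leaving out each library in turn gave 38 to 836 genes higher and 41 to 1158 lower, and 1 to 4 of the 6 genes lower, the fewest without non-responder replicate 2. Both counts over all genes moved by more than 1.5-fold without responder replicates 1, 2, 3 or 5 and without non-responder replicate 2. The cause was not tested. Uba7 also missed the threshold with no filter beyond a count above 0 (adjusted p = 0.0632). Scaling moved the median of all genes by less than 0.1 on the log2 scale. The untreated library was below all treated libraries for 3 genes, and for 3 to 4 under the alternatives (4 without responder replicate 1). The mean log2 ratio of Usp18 over Isg15 was -2.19 in responders and -1.21 in non-responders, with ranges of -2.29 to -2.06 and of -1.58 to -0.83 over alternatives. Exons without overlap numbered 11 for Usp18 throughout, 1 to 2 for Isg15, 0 to 9 for Uba7 and 5 to 15 for Herc6 when 1 non-responder was left out. With 1 mismatch allowed, 4 promoters matched each motif. No paired analysis was possible because the labels give no replicate numbers that groups share. Depth limits single exons of Usp18 in responders. Exon 10 stood at 0.0675 to 0.482 CPM there and at 1.03 to 2.47 CPM in non-responders. Its mean of 27.2 reads over the 11 libraries comes mostly from the non-responders.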
